A study of Mus musculus with 172 samples.

Results

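The 10 genes described here encode chaperones and folding enzymes of the endoplasmic reticulum (ER) that the unfolded-protein response is known to induce. They were chosen by name: Hspa5, Hsp90b1, Hyou1, Dnajb11, Sdf2l1, Calr, Pdia4, Pdia6, Manf and Creld2. All 10 were listed in both tissues, among 14896 genes in cortex and 14107 genes in liver. The mice were males of 33 BXD/RwwJ recombinant inbred lines, which carry fixed mixtures of the C57BL/6J and DBA/2J genomes, of both parental strains and of their reciprocal F1 hybrids (C57/BL/J x DBA/2J and DBA/2J x C57/BL/J in the labels), aged 11 to 14 weeks. SD mice were kept awake by gentle handling for 6 h from light onset, and Ctr mice were left undisturbed. Both were killed 6 h after light onset. RNA of mice of the same line and condition was pooled, from 3 mice except in 3 lines (BXD79, BXD85 and BXD101), so that 1 library stands for 1 pool and the spread between the mice of a pool was not measured. Each combination of condition and tissue had 39 pools, 1 for each of the 33 lines, 2 for each parental strain and 1 for each F1 hybrid. A further 4 lines of the BXD/TyJ set were kept apart.

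Proteins that enter the secretory pathway fold in the lumen of the ER, where Hsp70 and Hsp90 chaperones, lectin chaperones and disulfide isomerases bind them. When unfolded proteins accumulate, the membrane sensors Ire1 (Ern1), Atf6 and Perk (Eif2ak3) are released from BiP, the product of Hspa5. Ire1 then splices the mRNA of Xbp1, Atf6 is cleaved to an active transcription factor by the proteases encoded by Mbtps1 and Mbtps2, and Perk slows translation and favours that of Atf4. Induction of BiP in the cerebral cortex of sleep-deprived rodents is a known observation in the field, and the liver, which secretes plasma proteins, holds much ER.

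Atf6 and Xbp1 are known to act through a composite promoter element, the ER stress response element (ERSE), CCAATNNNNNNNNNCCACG. RefSeq promoter windows, from 250 bases before to 50 bases after each gene start (build GRCm38.p6), were held for 8 of the 10 genes, Manf and Hyou1 being the other 2. On either strand, 5 of these 8 windows held an exact ERSE, against 0.119% of all 32851 windows. The genes were chosen because this response is known to induce them, so a high share follows from the choice and tests nothing. The second form, ERSE-II (ATTGGNCCACG), was found in 1 of the 8 windows and in 0.0365% of all windows, and the element UPRE (TGACGTGG) in 0 of the 8 and in 0.676% of all. No ERSE overlapped an ERSE-II in these windows. Of the 74 genes of the compared lists described below, 58 had a window, and 4 of them held an ERSE: Canx, Dnajc3, Derl3 and Syvn1. Of those 58 genes, 1 held an ERSE-II and 4 held a UPRE. The windows of Sdf2l1 and Pdia4 held no ERSE, ERSE-II or UPRE, and both genes rose with the others in the results below. The windows with an ERSE or ERSE-II are shown, and no link between these elements and the changes was tested. They are printed in the orientation of the gene, with the element in capitals. On the forward strand of the gene, the ERSE began 65 bases before the start of Hspa5, 212 bases before that of Hsp90b1 and 98 bases before that of Pdia6. On the reverse strand, where it reads CGTGG first, its first base lay 107 bases before the start of Hsp90b1, 162 bases before that of Calr and 126 bases before that of Creld2. The ERSE-II of Dnajb11 began at base 8 from the start. A match is a match of letters only, and these windows say nothing of binding.
Hspa5, chr2:34772005-34772063, + strand: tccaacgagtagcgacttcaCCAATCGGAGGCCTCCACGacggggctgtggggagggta
Hsp90b1, chr10:86705618-86705676, - strand: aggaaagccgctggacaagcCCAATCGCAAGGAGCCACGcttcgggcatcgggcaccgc
Hsp90b1, chr10:86705513-86705571, - strand: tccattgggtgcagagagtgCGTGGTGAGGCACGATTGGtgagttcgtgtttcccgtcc
Calr, chr8:84847055-84847113, - strand: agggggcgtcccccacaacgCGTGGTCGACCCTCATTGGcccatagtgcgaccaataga
Pdia6, chr12:17266471-17266529, + strand: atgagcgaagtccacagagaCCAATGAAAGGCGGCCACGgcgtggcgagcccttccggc
Creld2, chr15:88819500-88819558, + strand: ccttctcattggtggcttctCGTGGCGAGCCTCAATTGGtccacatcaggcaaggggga
Dnajb11, chr16:22857832-22857862, + strand: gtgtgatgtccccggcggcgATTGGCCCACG

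Levels are log2 CPM, the logarithm of the reads of a gene scaled to the library total, as deposited. The reads behind them ranged from 18995492 to 28998853 per library in cortex and from 4681101 to 8269401 in liver. The tissue labels were checked against markers. All 6 neuronal and glial markers were listed in cortex, with a summed level of 6648 to 8554 CPM, and all 6 hepatocyte markers in liver, with 1514 to 2444 CPM. The hepatocyte marker Alb had the most mean reads per base of any liver gene (1.78), a limit described with the liver changes. The liver sum is thus that of the deposited values only.

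The question of the first comparison was what sleep deprivation did to the transcriptome of the cortex. All 10 genes rose in cortex after SD, by 1.60-fold (Dnajb11) to 3.16-fold (Sdf2l1). For each of the 10, every one of the 39 SD pools lay above every one of the 39 Ctr pools, a separation that 1.01% of all cortex genes showed in this direction. Every gene was higher after SD in 39 of 39 pairs of pools of the same line, which 6.48% of all genes did. At an adjusted p under 0.05 (limma, Benjamini-Hochberg over all genes), 33% of all genes rose and 35.4% fell, so the call alone sets the 10 genes little apart. The median log2 change of the 10 genes was 0.97, against -0.0097 over all genes.

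Among the lumenal Hsp70 and Hsp90 chaperones and their partners, Hspa5 (chr2:34627490-34632051, + strand, mm9) encodes BiP, the main Hsp70 of the ER. Its level in Ctr cortex was 7.40 at the lowest, 7.63 at the median and 8.18 at the highest, and in SD cortex 8.54, 8.99 and 9.22. The lowest SD pool thus exceeded the highest Ctr pool, and the change, 1.32 ± 0.04 (SE) on the log2 scale or 2.50-fold, had the smallest p of all 14896 genes (adjusted p = 2.97e-48, limma). Hsp90b1 (chr10:86152954-86168254, - strand) encodes Grp94, the Hsp90 of the ER. It was at 8.26, 8.41 and 8.78 in Ctr and at 8.88, 9.19 and 9.31 in SD (lowest, median and highest of 39 pools). Hyou1 (chr9:44187573-44200452, + strand) encodes the large Hsp70-like protein Grp170, which exchanges nucleotide on BiP. It was at 6.67, 6.77 and 7.04 in Ctr and at 7.24, 7.52 and 7.69 in SD. The rises of Hsp90b1 and Hyou1 were of one size, 0.72 ± 0.02 and 0.72 ± 0.02 (log2), each 1.65-fold. Dnajb11 (chr16:22857918-22879707, + strand) encodes ERdj3, a J-domain partner of BiP. It was at 5.57, 5.69 and 6.04 in Ctr and at 6.13, 6.40 and 6.55 in SD, and its rise of 0.68 ± 0.02 was the smallest of the 10. Sdf2l1 (chr16:17130231-17132476, - strand) encodes a small partner of ERdj3. It was at 2.01, 2.44 and 3.15 in Ctr and at 3.73, 4.16 and 4.62 in SD. Its rise of 1.66 ± 0.05 was the largest of the 10 and ranked 16th among all genes by log2 change, and its level per length was the lowest of the 10 in both conditions.

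Calr (chr8:87365749-87370833, - strand) encodes calreticulin, a lectin chaperone of glycoproteins that also stores calcium. It was at 8.04, 8.25 and 8.61 in Ctr cortex and at 8.82, 9.10 and 9.24 in SD cortex, a rise of 0.83 ± 0.03. The protein disulfide isomerases Pdia4 (chr6:47746141-47763511, - strand) and Pdia6 (chr12:17273351-17291576, + strand) form and rearrange disulfide bonds. Pdia4 was at 4.62, 4.87 and 5.37 in Ctr and at 5.43, 5.93 and 6.33 in SD, a rise of 1.05 ± 0.04. Pdia6 was at 6.16, 6.30 and 6.72 in Ctr and at 7.01, 7.30 and 7.48 in SD, a rise of 0.95 ± 0.03. For Pdia4, the lowest SD pool was above the highest Ctr pool by the narrowest margin among the 10 genes.

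Manf (chr9:106740643-106794310, - strand) and Creld2 (chr15:88650076-88657111, + strand) encode small ER proteins that are secreted under ER stress. Manf was at 4.71, 4.92 and 5.42 in Ctr and at 5.62, 5.96 and 6.14 in SD, a rise of 0.99 ± 0.03. Creld2 was at 3.35, 3.53 and 3.87 in Ctr and at 4.24, 4.56 and 4.91 in SD, a rise of 1.00 ± 0.03. Their folds were 1.99 and 2.00. Over the 10 genes, the adjusted p (limma) was at most 1.68e-39. In bulk tissue, more cells of a type and more RNA per cell cannot be told apart. The summed level of 5 choroid plexus markers, which differed widely between pools, was 8.49 to 240 CPM in Ctr and 7.66 to 414 CPM in SD, and 0 of the 5 passed the test. Of 4 pituitary markers, Prl and Cga were not listed, and the other 2 summed to 0.56 to 59.9 CPM in Ctr and 0.46 to 6.56 CPM in SD, with 0 of the 2 past the test. The part of these cells in the changes was not tested.

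**Figure D1:**
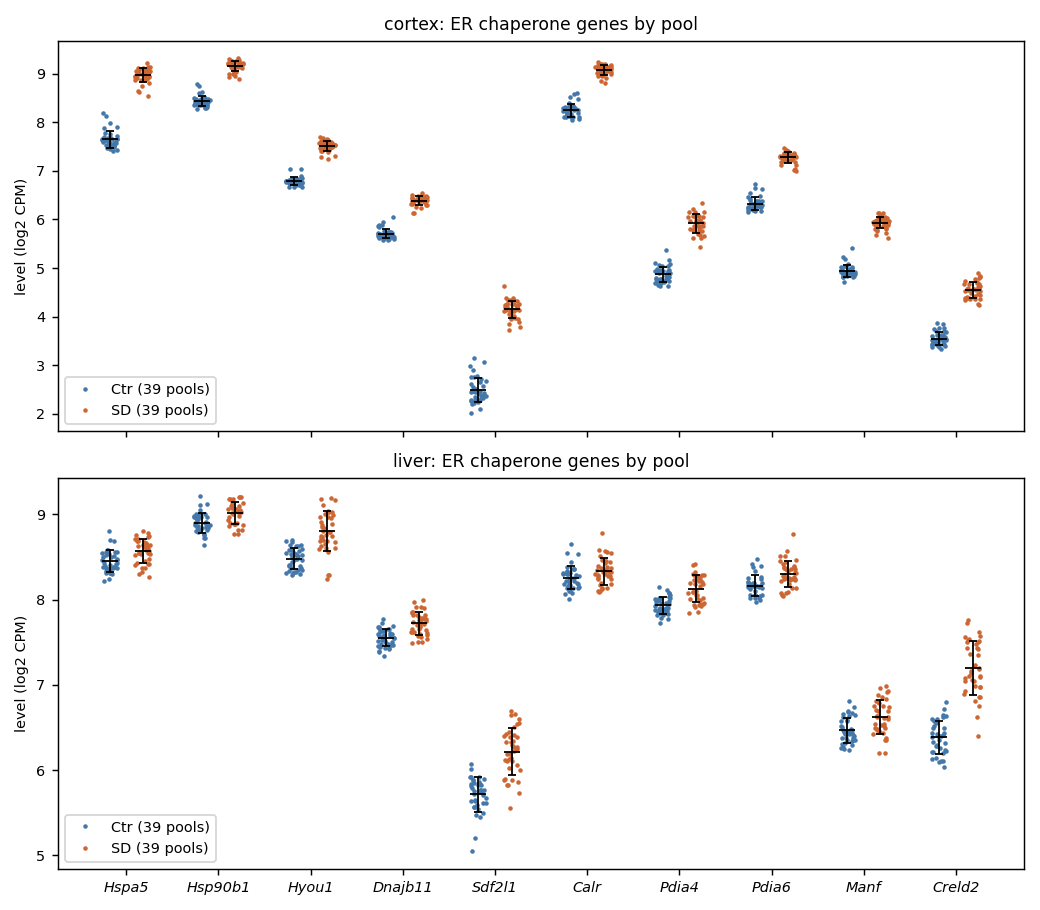
Level (log2 CPM, vertical axis) of the 10 genes in the 39 Ctr pools (blue) and 39 SD pools (orange) of cortex (top) and liver (bottom), with 1 point per pool and the mean ± SD in black. In cortex the 2 clouds of each gene are apart, as for Hspa5 with a highest Ctr value of 8.18 and a lowest SD value of 8.54, and in liver they overlap for all 10 genes.

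Levels of different genes were compared per length of transcript. In liver, where the reads of dense genes rose little with depth (given with the liver changes), the order below is that of the deposited values only. On the scale of log2 CPM per kilobase of transcript, the order in Ctr cortex was Calr (7.12 ± 0.13, SD, n = 39), Hsp90b1 (6.93 ± 0.11), Hspa5 (6.26 ± 0.17), Pdia6 (5.21 ± 0.13), Hyou1 (4.62 ± 0.08), Dnajb11 (4.38 ± 0.10), Manf (3.78 ± 0.12), Pdia4 (3.56 ± 0.16), Creld2 (3.10 ± 0.13) and Sdf2l1 (2.34 ± 0.26). Each gene exceeded the next in 39 of 39 pools, except Manf, which exceeded Pdia4 in 37. After SD the order was the same, but Hspa5 came close to Hsp90b1 (7.58 ± 0.15 and 7.66 ± 0.11, with Hsp90b1 higher in 31 of 39 pools) and Sdf2l1 to Creld2 (4.00 ± 0.18 and 4.10 ± 0.16, with Creld2 higher in 34). In Ctr liver, Hsp90b1 led (7.40 ± 0.12), and Calr (7.13 ± 0.14), Hspa5 (7.07 ± 0.13) and Pdia6 (7.04 ± 0.12) had means that differed by no more than their SD, with Calr above Hspa5 in 37 of 39 pools and Hspa5 above Pdia6 in 24. The lower genes in Ctr liver were Pdia4 (6.62 ± 0.10), Hyou1 (6.31 ± 0.12), Dnajb11 (6.22 ± 0.10), Creld2 (5.94 ± 0.19), Sdf2l1 (5.57 ± 0.20) and Manf (5.30 ± 0.15). After SD, Creld2 moved from the eighth to the sixth place in liver (6.75 ± 0.32), above Hyou1 (6.64 ± 0.23) in 30 of 39 pools, and near Pdia4 (6.82 ± 0.15), which exceeded it in 23 of 39. The place of Manf rests on its transcript of 2247 bases, the one with the longest coding sequence.

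The second comparison asked the same of the liver. All 10 genes passed the test there too, but the rises were smaller, with a median log2 change of 0.16 against -0.0015 over all genes, and 0 of the 10 had ranges that lay apart (0.0567% of all liver genes did, upward). In liver 21.5% of all genes rose and 22.6% fell at the same threshold. Creld2 showed the largest rise of the 10. It was at 6.03, 6.40 and 6.80 in Ctr liver and at 6.40, 7.16 and 7.76 in SD liver. Only Creld2 and Sdf2l1 of the 10 rose in 39 of 39 pairs, as 1.02% of all liver genes did. The change of Creld2 was 0.82 ± 0.06 (SE, log2), or 1.76-fold (adjusted p = 3.51e-21, limma), and 36 of 39 SD pools exceeded the highest Ctr pool.

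Sdf2l1 was at 5.05, 5.75 and 6.07 in Ctr liver and at 5.55, 6.25 and 6.70 in SD liver. It rose by 0.50 ± 0.05 (adjusted p = 7.71e-13, limma), with 28 of 39 SD pools above the highest Ctr pool. Hyou1 was at 8.29, 8.50 and 8.70 in Ctr liver and at 8.25, 8.80 and 9.19 in SD liver, so the SD pools spread both below and above the Ctr pools. Its rise was 0.32 ± 0.04, in 35 of 39 pairs. The remaining 7 genes rose by less than 0.2 on the log2 scale: Pdia4 by 0.19 ± 0.03, Dnajb11 by 0.17 ± 0.03, Manf by 0.15 ± 0.04, Pdia6 by 0.14 ± 0.03, Hspa5 by 0.12 ± 0.03, Hsp90b1 by 0.12 ± 0.03 and Calr by 0.08 ± 0.03.

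Hspa5 was at 8.22, 8.43 and 8.81 in Ctr liver and at 8.27, 8.60 and 8.81 in SD liver, and none of the SD pools exceeded the highest Ctr pool. It rose in 33 of 39 pairs. Calr was at 8.001, 8.25 and 8.65 in Ctr liver and at 8.08, 8.32 and 8.79 in SD liver, and rose in 25 of 39 pairs. Its call was at the edge of the threshold (adjusted p = 0.0488, limma), and was lost with median-centred libraries (0.0865), without a variance trend (0.0531) and in the 33 BXD/RwwJ lines alone (0.0599).

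The liver changes of several genes followed the depth of the libraries. No liver gene exceeded 1.78 mean reads per base of transcript (Alb), against 62.3 in cortex (Snhg11), and the 10 genes lay between 0.28 (Manf) and 1.18 (Hsp90b1) in liver. Over liver libraries, the slope of log2 reads of a gene on log2 total reads was 0.96 at the median of the 2277 genes with 0.2 to 0.4 reads per base, and 0.29 at that of the 401 genes with 0.8 to 1.2. In cortex the medians of the same 2 classes were 0.98 and 0.99. In liver the slope was 0.21 for Calr, 0.39 for Hspa5, 0.38 for Pdia6 and 0.43 for Hsp90b1, against 0.84 for Creld2, 0.89 for Sdf2l1 and 1.06 for Hyou1. Dnajb11 (0.58) and Pdia4 (0.64) lay between. Manf, the least dense of the 10, had a slope of 0.37, below the median of its class. Its density rests on a transcript of 2247 bases, the one with the longest coding sequence, and would be higher with a shorter one.

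Over the 33 BXD/RwwJ lines, the SD pool had 0.77 to 1.16 times the liver reads of the Ctr pool of its line. The liver change of Calr fell with this difference in log2 total reads (Pearson r = -0.94, Spearman rho = -0.93, both with permutation p = 1e-05, the smallest that 100000 resamples can give, adjusted p = 0.0001 and 0.0002 over 20 relations). Without the 2 lines farthest from the median in that difference, r was -0.92. Pdia6 (r = -0.71, rho = -0.70, permutation p = 1e-05 and 5e-05, adjusted 0.0001 and 0.0005, -0.61 without 2 lines) also fell with it. Hsp90b1 (r = -0.61, rho = -0.62, permutation p = 0.00013 and 0.00022, adjusted 0.00087 and 0.0015, -0.61 without 2 lines) and Hspa5 (r = -0.56, rho = -0.58, permutation p = 0.00062 and 0.00041, adjusted 0.0031 and 0.0021, -0.54 without 2 lines) did so as well. Hyou1 moved the other way (r = 0.49, rho = 0.44, permutation p = 0.0032 and 0.0098, adjusted 0.013 and 0.039, 0.48 without 2 lines). In cortex 0 of 10 genes passed this test, with r between -0.38 and -0.19 and a lowest adjusted p of 0.0963 (permutation test), while Pdia4 and Creld2 had an unadjusted permutation p of 0.0483 and 0.0289. With log2 library reads as a covariate, added after the data were seen, all 10 genes still rose in liver, Calr by 0.06 (adjusted p = 4.25e-10, limma).

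**Figure D2:**
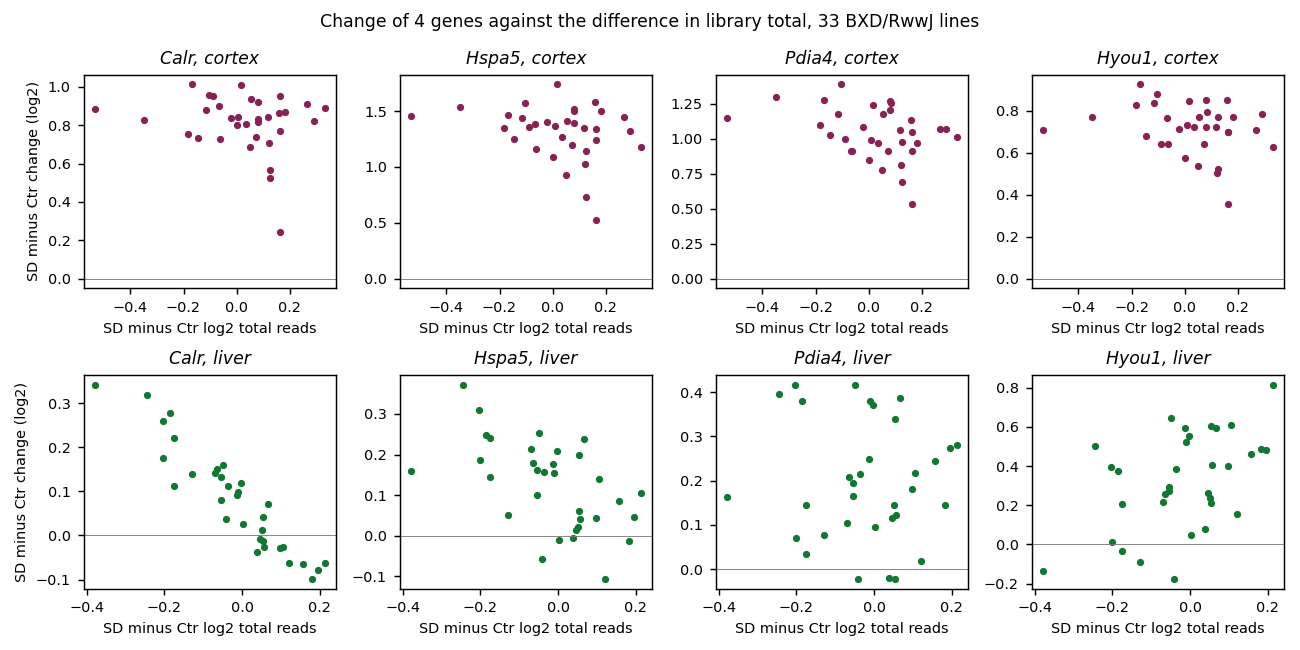
SD minus Ctr change (log2, vertical axis) of Calr, Hspa5, Pdia4 and Hyou1 against the SD minus Ctr difference in log2 total reads (horizontal axis), with 1 point for each of 33 BXD/RwwJ lines, in cortex (top) and liver (bottom). In liver the points of Calr lie near a falling line (r = -0.94) and those of Hyou1 scatter about a rising one (r = 0.49).

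Markers of B cells and of plasma cells, the latter of which hold much ER, moved in the liver. Which of these cell types the change belonged to was not tested. All 6 B cell and plasma cell markers were listed (with Igj, the older symbol, for Jchain), 4 fell and none rose, and their summed level was 10.97 to 40.5 CPM in Ctr (median 19.2) and 5.54 to 21.2 CPM in SD (median 10.7). Of 7 markers of the exocrine pancreas 1 was listed, at 0.15 to 7.64 CPM in Ctr and 0.15 to 5.12 CPM in SD. The part of these cells in the liver values was not tested.

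The third comparison set the tissues side by side, by the liver change minus the cortex change of each pool. All 10 genes rose less in liver, as did 29.6% of the 12695 genes listed in both tissues (limma, adjusted p under 0.05). The difference was largest for Hspa5, -1.20 ± 0.04 (SE, log2), and for Sdf2l1, -1.16 ± 0.06, and in both the liver change was the smaller in 39 of 39 pools. It was -0.85 ± 0.03 for Pdia4, -0.84 ± 0.04 for Manf, -0.81 ± 0.03 for Pdia6, -0.75 ± 0.03 for Calr, -0.61 ± 0.03 for Hsp90b1, -0.51 ± 0.03 for Dnajb11 and -0.40 ± 0.04 for Hyou1. Creld2 differed least, by -0.19 ± 0.05 (adjusted p = 0.0027, limma), and its liver change was the smaller in 28 of 39 pools. The mean liver change was 0.09 times that of cortex for Hspa5 and 0.81 times that of cortex for Creld2. Over all genes, the median absolute log2 change in liver was 0.08 at 0.2 to 0.4 reads per base and 0.03 at 0.8 to 1.2, the liver class of Hspa5, Hsp90b1, Calr and Pdia6, against 0.11 and 0.10 in the same classes in cortex. The part of read density in the tissue differences was not tested. RNA of the tissues was extracted with different kits, and depth differed as given above, so tissue and these steps cannot be told apart.

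**Figure D3:**
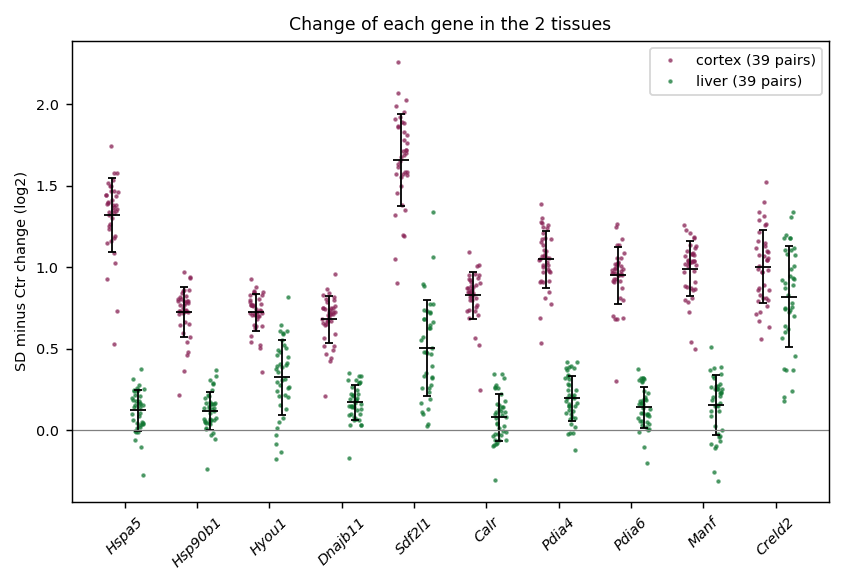
SD minus Ctr change (log2, vertical axis) of the 10 genes in cortex (purple) and liver (green), with 1 point for each of 39 pairs of pools and the mean ± SD in black. All cortex points lie above 0, the lowest being 0.21 for Dnajb11, whereas the liver points of most genes straddle 0 and those of Creld2 and Sdf2l1 lie above it.

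Genes that act beside the 10 in the same pathway were counted in lists. In cortex 47 of 72 listed genes rose and 14 fell, and in liver 24 of 74 rose and 4 fell. Over all genes at the same threshold, 33% rose and 35.4% fell in cortex, and 21.5% rose and 22.6% fell in liver. These shares are the background of each list count below, and no list was tested against them. With a replicate block for the line, the counts in liver were 28 and 9, and with quantile normalization 25 and 11. The median log2 change over these genes was 0.14 in cortex and 0.04 in liver.

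Of 7 sensors and transcription factors, 4 rose and 3 fell in cortex. Xbp1, the transcription factor that Ire1 activates, rose by 0.72 ± 0.02 (from 6.15 to 6.87), and Atf6 by 0.29 ± 0.02. The Atf6 proteases fell, Mbtps1 by 0.14 ± 0.01 and Mbtps2 by 0.09 ± 0.02. In liver 3 of the 7 rose and none fell, led by Ern1, by 0.24 ± 0.08, and Xbp1, by 0.13 ± 0.03. The values sum the spliced and unspliced forms of Xbp1 mRNA.

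Of 19 other folding factors, 13 rose and 3 fell in cortex. Pdia3, the disulfide isomerase that works with calreticulin, rose by 0.68 ± 0.03 and Dnajc3, a J-domain protein of the lumen, by 0.62 ± 0.03. Sil1, a nucleotide exchange factor of BiP, fell by 0.33 ± 0.03, and Txndc5, a disulfide isomerase, fell by 0.24 ± 0.02, both in 39 of 39 pairs. Sil1 and Hyou1, which are known to act on BiP in the same way, thus moved in opposite directions. In liver 7 rose and 1 fell, or 7 and 4 with the replicate block. The largest rises there were those of Ero1lb, an oxidase of disulfide isomerases, by 0.27 ± 0.04 and Dnajc3 by 0.18 ± 0.02, and Txndc11 fell by 0.08 ± 0.03 (adjusted p = 0.0183, limma; 0.059 in the 33 BXD/RwwJ lines alone).

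Of 13 genes of ER-associated degradation, which returns misfolded proteins to the cytosol, 8 rose and 3 fell in cortex. Derl3, a derlin of the retrotranslocation machinery, rose by 1.19 ± 0.09 from a low level (-0.05 to 1.14 log2 CPM) and Herpud1 by 0.32 ± 0.03, while Erlec1 fell by 0.28 ± 0.03. In liver 5 rose and 1 fell. Derl3 rose there by 1.66 ± 0.20 (from 3.10 to 4.76), more than any of the 10 chaperone genes, and Syvn1, the ubiquitin ligase Hrd1, by 0.34 ± 0.05, and Erlec1 fell by 0.11 ± 0.02. Promoter windows were held for 10 of the 13 genes of this list. Those of Derl3 and Syvn1 held an ERSE, 1 gene held an ERSE-II and 1 a UPRE. No link between these elements and the changes was tested.

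Of 22 genes of translocation, signal peptide cleavage, N-glycosylation and retrieval, 20 were listed in cortex (Sec61g and Kdelr3 were not), and 13 rose and 3 fell. The largest rises were those of the oligosaccharyltransferase subunits Ostc, by 0.42 ± 0.05, and Rpn1, by 0.37 ± 0.02. Kdelr1, a retrieval receptor, fell by 0.08 ± 0.02 and Ssr4 fell by 0.07 ± 0.02. In liver none of 22 rose and Ssr1 fell by 0.11 ± 0.02, whereas with the replicate block 1 rose and 3 fell.

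Of 7 targets of the Perk and Atf4 branch, 3 rose and 2 fell in cortex. Ddit3, which encodes Chop, rose by 0.32 ± 0.03 and Atf4 by 0.25 ± 0.05, and the Atf4 targets Asns and Sesn2 fell by 0.16 ± 0.04 and 0.11 ± 0.04. In liver 3 rose, led by Chac1, by 0.48 ± 0.11, and Ddit3, by 0.30 ± 0.06, and Atf4 itself fell by 0.17 ± 0.03. All 6 cytosolic heat shock genes rose in both tissues. Hspa1b rose by 1.35 ± 0.07 in cortex and 1.74 ± 0.11 in liver, Hsph1 by 0.83 ± 0.03 in cortex and Hspa1a by 1.69 ± 0.19 in liver. Hspa1a and Hspa1b are near-identical copies, and reads could be split between them.

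The size of the cortical response differed between lines, and it did so for the 10 genes together. The mean log2 change over the 10 genes ranged from 0.43 (BXD89) to 1.26 (BXD64) over 33 lines, with a median of 1.01. BXD89 had the smallest change of the 39 pools for each of the 10 genes, from 0.21 for Dnajb11 to 0.90 for Sdf2l1. The next lowest mean was that of BXD97 (BXD/RwwJ 65a (97) in the labels, 0.64, against 1.10 in BXD65), and the next highest were those of BXD66 (1.24) and BXD61 (1.22). In BXD89, 8 of the 10 genes were among the highest 2 Ctr pools of 39 and 8 were among the lowest 5 SD pools. In BXD97, too, 8 genes were among the highest 2 Ctr pools, but its SD levels ranked 12th to 29th from the highest. Hspa5, for example, was at 8.12 in Ctr and 8.65 in SD cortex of BXD89, and at 8.18 and 8.91 in BXD97. BXD89 and BXD97 were singled out by their small change, so high Ctr or low SD ranks follow in part from that choice. Each of these values rests on 1 pool.

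**Figure D4:**
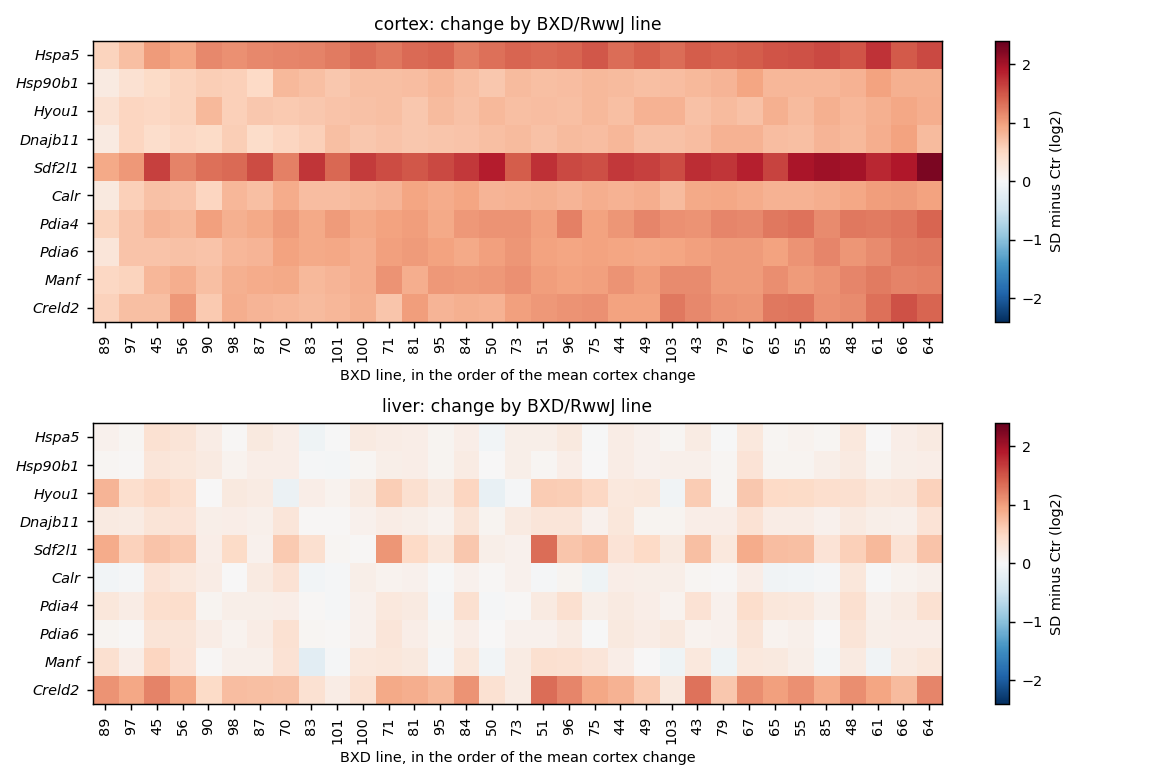
SD minus Ctr change (colour, log2) of the 10 genes (rows) in 33 BXD/RwwJ lines (columns, ordered by the mean cortex change) in cortex (top) and liver (bottom). The columns of BXD89 and BXD97 at the left are pale across the rows in cortex, with means of 0.43 and 0.64, while in liver BXD89 is among the darker columns for Creld2 (1.08).

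Over the 33 lines, the cortical changes of all 45 pairs of genes were positively correlated. Pearson r ranged from 0.64 (Sdf2l1 with Creld2) to 0.92 (Hspa5 with Hsp90b1), with a median of 0.82, and Spearman rho from 0.52 to 0.88. All 45 pairs passed by either measure (permutation tests, adjusted p at most 5.71e-05 for r, over 90 relations in both tissues). How many pairs of other genes would pass was not computed in either tissue. Without the 2 lines farthest from the median, r lay between 0.51 and 0.85. Without BXD89 and BXD97, chosen after the data were seen, all 45 pairs still passed, with r from 0.45 to 0.85. Both changes of a pair come from the same libraries, and the share of a common library effect in r was not measured except through the total reads below. Creld2 (median r with the other 9 genes of 0.72) and Sdf2l1 (0.74) were the least tied to the rest, and Hspa5 (0.88) the most.

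The gene changes most like that of Hspa5 over the lines, ranked by Pearson r among 14895 cortex genes, included 8 of the 9 others within the first 12 places. The exception was Creld2 (r = 0.72), in place 36. The 5 other genes most like it were Pdia3 (r = 0.89), Xbp1 (0.85), Dnajc3 (0.85), Tra2a (0.81), a splicing factor, and Bhlhb9 (0.80). Tra2a rose by 0.66 ± 0.03 and Bhlhb9 by 0.37 ± 0.02 in cortex. In liver the 5 were Canx (r = 0.85), which encodes the lectin chaperone calnexin, Pdia3 (0.84), Ssr3 (0.80), Serp1 (0.75) and Xbp1 (0.74). Ssr3 and Serp1 did not pass the test of change in liver (log2 change 0.03 ± 0.02 and 0.05 ± 0.03). Of the 10 genes, Hsp90b1 (r = 0.83, place 3) and Calr (0.75, place 5) were near Hspa5 in liver, whereas Hyou1 (0.37, place 1487) and Sdf2l1 (0.21, place 2940) were far from it.

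In liver the changes formed a looser pattern. Pearson r over the 45 pairs ranged from -0.22 (Hyou1 with Calr) to 0.84 (Hyou1 with Creld2), with a median of 0.61, and 35 pairs passed by Pearson and 31 by Spearman correlation (permutation tests, adjusted over 90 relations). Hspa5 and Hsp90b1 (r = 0.83), and Calr and Pdia6 (0.84), were closely tied, and so were Hyou1 and Creld2, and Pdia4 and Creld2 (0.81). The lowest r was found for pairs such as Hyou1 with Pdia6 (0.05), Sdf2l1 with Calr (-0.14) and Creld2 with Calr (-0.01). The pairs did not fall into separate sets, since Pdia4 also had r of 0.71 with Hspa5 and 0.68 with Hsp90b1, and Hspa5 with Creld2 had 0.44. Hspa5, Hsp90b1, Calr and Pdia6 are the genes whose changes fell with total reads. After regression of each change on the SD minus Ctr difference in log2 total reads, added after the data were seen, r ranged from 0.45 to 0.90 in liver, with a median of 0.72, and 45 of 45 pairs passed. The cortex r, at 0.60 to 0.92, moved little.

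**Figure D5:**
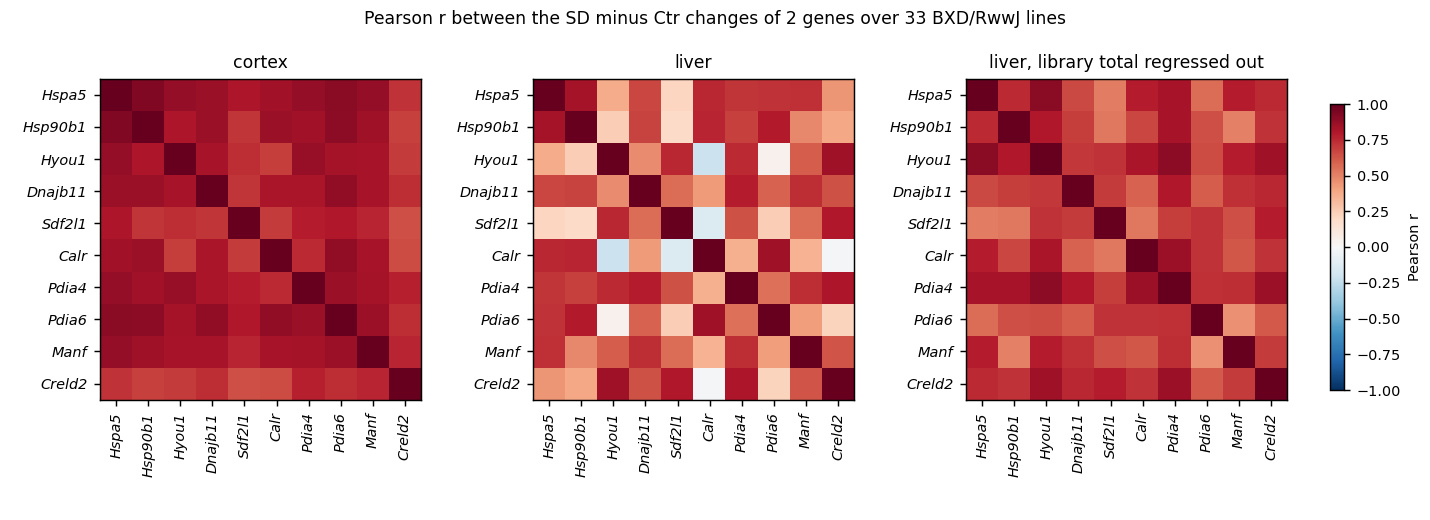
Pearson r (colour) between the SD minus Ctr changes of each pair of the 10 genes over 33 BXD/RwwJ lines, in cortex (left), in liver (middle) and in liver after regression on the difference in total reads (right). The cortex matrix is red throughout (0.64 to 0.92), the liver matrix has pale cells for Calr with Hyou1, Sdf2l1 and Creld2 (-0.22, -0.14 and -0.01), and after regression its lowest value is 0.45.

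No relation between the changes in the 2 tissues was detected. The correlation of the cortex change with the liver change over 33 lines lay between -0.22 (Hyou1) and 0.24 (Creld2), and 0 of 10 passed (permutation tests, lowest adjusted p = 0.86 for Pearson r and 0.70 for Spearman rho over 10 relations, lowest unadjusted p = 0.17 and 0.07). With 2 lines left out, r lay between -0.29 and 0.36. In liver the means over the 10 genes ran from 0.02 (BXD101) to 0.49 (BXD45), and in BXD89, the lowest line in cortex, the liver change was 1.08 for Creld2, 0.89 for Sdf2l1 and 0.82 for Hyou1, but 0.11 for Hspa5, 0.06 for Pdia6, 0.05 for Hsp90b1 and -0.06 for Calr. The difference in log2 total liver reads of BXD89 (0.21) was the highest of the 33 lines.

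Whether a line that was high without sleep loss was also high after it was asked by the correlation of the Ctr and SD levels over the 33 lines. In cortex Pdia4 alone passed by Pearson correlation (r = 0.50, rho = 0.50, permutation p = 0.0030 and 0.0038, adjusted 0.0075 and 0.0095 over 20 relations, 0.51 without 2 lines). By rank Calr passed as well (rho = 0.44, permutation p = 0.0103, adjusted 0.0207), whose r was 0.24 with all lines and 0.54 without 2. For the other 8 genes r in cortex lay between -0.24 and 0.23. In liver 7 of 10 genes passed by Pearson correlation, Dnajb11 (r = 0.73), Hsp90b1 (0.73), Pdia6 (0.71), Hspa5 (0.68), Calr (0.67), Manf (0.57) and Pdia4 (0.55), with permutation p adjusted to at most 0.0025, and 8 of 10 passed by Spearman correlation. After regression of the levels on log2 total reads, added after the data were seen, none of the 10 passed in liver by Pearson correlation (r from -0.03 to 0.47, lowest adjusted permutation p = 0.0613), and Pdia6 passed by rank (rho = 0.48, adjusted permutation p = 0.0406). In cortex 1 gene passed by Pearson and 2 by Spearman correlation. The share of all genes that would pass was not computed, so these counts are not set against a background. Over all genes, the Ctr and SD pools of a line resembled each other, with a median correlation of 0.61 in cortex and 0.48 in liver.

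Repeat pools of the parental strains gave 2 values of each change in the same strain. Per the study's methods, these repeats were taken at the start and at the end of the data collection. The difference between the changes of 2 pools of the same strain had a median of 0.08 in cortex and 0.07 in liver over the 10 genes, and a highest value of 0.27 (Creld2) and 0.45 (Creld2). Over the 33 lines the SD of the change was 0.12 to 0.29 in cortex and 0.09 to 0.32 in liver. In liver, the 2 pools of a strain were alike in the SD minus Ctr difference in log2 total reads (given below). Over the 33 lines that difference ran from -0.38 to 0.21, a range that the repeat pools of a strain do not cover. Both DBA/2J pools had a larger liver change than both C57BL/6J pools for 8 of the 10 genes, the others being Sdf2l1 and Creld2, as for 27.5% of all liver genes. In cortex this held for 3 of the 10 genes and for 20.4% of all genes. Calr, for example, changed by -0.08 and -0.09 in the C57BL/6J pools and by 0.26 and 0.34 in the DBA/2J pools, and Hspa5 by 0.04 and 0.03 against 0.25 and 0.28. The SD minus Ctr difference in log2 total liver reads, with which the changes of both genes fell over the lines, was 0.15 and 0.14 for the C57BL/6J pools and -0.18 and -0.27 for the DBA/2J pools. Its part in the strain difference was not tested. With 2 pools of each strain no test was made. Of the F1 hybrids, the DBA/2J x C57/BL/J pool had lower SD than Ctr levels in liver for 7 of the 10 genes, with -0.27 for Hspa5, -0.24 for Hsp90b1 and -0.31 for Calr. In its Ctr library 7 genes were among the highest 2 of 39 pools (Hspa5 at 8.81), and its SD library had the larger total, by 0.38 on the log2 scale. In the reciprocal pool all 10 genes were higher after SD in liver (Hspa5 by 0.26).

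The 4 BXD/TyJ lines, which entered none of the fits above, gave a separate look at the same changes. The lines 29 and 29t share a number in the labels and may not be independent. All 10 genes were higher after SD in cortex in 4 of 4 lines, as 24.7% of all cortex genes did. The log2 change of Hspa5 was 1.23, 1.39, 1.27 and 1.57 in the lines 05, 29, 29t and 32, and that of Sdf2l1 1.25, 1.87, 1.71 and 1.79. In liver all 10 genes were higher after SD in 4 of 4 lines, against 17.4% of all liver genes. Creld2 was higher there by 0.77, 0.79, 0.61 and 1.18, and Calr by 0.0035, 0.11, 0.0049 and 0.29.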

How the data were processed

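RNA of cortex and liver was measured in 172 libraries. Per the study's methods, single-end reads of 100 bases from stranded mRNA libraries were aligned with STAR (mm9), assigned to RefSeq genes with HTSeq (reverse strand) and normalized with edgeR (TMM) by the authors, leaving out genes with a mean count under 10. The deposited unit is log2 CPM. Undoing prior count and scaling gave whole reads for 100% of values (within 0.02 read). The lowest mean of a gene was 4.93 such reads in cortex and 1.84 in liver, below the stated minimum.

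SD and Ctr pools were compared with limma 3.58.1 in R 4.3.3 (variance trend, no voom in the reported fit, Benjamini-Hochberg over all genes, 0.05). The difference between tissues was tested on the liver minus cortex change of each pool. Correlations over lines were tested with two-sided permutation tests (100000 resamples). Transcript lengths were those of GENCODE vM1 (mm9), for 13337 of 14896 cortex genes and 12763 of 14107 liver genes. Promoter sequences were those of RefSeq (GRCm38.p6). The limma and correlation steps were tested on simulated data. The libraries simulated for limma were independent, with mean reads in proportion to the total. They thus held neither the liver pattern of reads with depth nor the likeness of pools of a line described next.

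Ctr and SD pools with the same number come from the same inbred line. In cortex, their deviations from the group means correlated by 0.30 or more, with a median of 0.61. In liver the lowest value was 0.17 and the median 0.48. Pools of different lines had a median of -0.02 in either tissue. The replicate block is therefore among the alternatives. Others were no trend, median-centred libraries, quantile normalization, a minimum of 0 log2 CPM, log2(CPM + 1), all 43 pools, 33 lines, leaving out BXD79, BXD85 and BXD101, and voom on recovered reads. Library reads as a covariate or regressor, and leaving out BXD89 and BXD97, were added after the data were seen. The genes, lists, tests and alternatives were chosen with earlier results of these data known.

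Named were the 10 genes, in each list and tissue up to 2 largest rises and 2 largest falls past the threshold, and the 5 other genes most like Hspa5. A gene that this rule names is not reported here. Values outside this rule were picked after they were seen: the genes with an ERSE in the compared lists, and Alb and Snhg11 for read density.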

Additional observations from a re-analysis of the deposited data

Results flagged for a closer look

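The change after SD differed between the tissues, by a test of the difference itself, for all 10 genes (limma, adjusted p at most 0.0027). The liver minus cortex difference in log2 change was -1.20 for Hspa5, -0.61 for Hsp90b1, -0.40 for Hyou1, -0.51 for Dnajb11, -1.16 for Sdf2l1, -0.75 for Calr, -0.85 for Pdia4, -0.81 for Pdia6, -0.84 for Manf and -0.19 for Creld2. Dixon's test flagged no line in any of 20 sets of 4 BXD/TyJ changes, in which chance alone would pick about 1 in 20. With 4 values per set it can flag only an extreme gap, and all sets reuse the same 4 lines. No conclusion is therefore drawn from it. Line 32 had the largest of the 4 changes for all 10 genes in liver, and in cortex for all but Sdf2l1 and Calr. The liver change of Hspa5, for example, was 0.32 in line 32, against 0.05, 0.10 and 0.09 in the others.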

How the results depend on the processing

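The counts of the 10 genes called up were 10 in cortex under all alternatives run, the tissue difference was called for all 10 under all of its alternatives, and no result reversed. In liver the count was 9 without Calr where its call was lost. The 13 alternatives left the log2 change of Hspa5 between 1.29 and 1.36 in cortex and between 0.10 and 0.13 in liver. The replicate block changed no call of the 10 genes (Calr in liver, adjusted p = 0.0037, limma) but moved the pathway genes called down in liver from 4 to 9. They were 9 with voom on recovered reads and the replicate block, 11 with quantile normalization and 11 with log2 library reads as a covariate. The liver genes whose Ctr and SD levels correlated over lines went from 7 to 0 by Pearson and from 8 to 1 by Spearman correlation after regression on library totals. The causes were not tested. Depth in liver, 4681101 to 8269401 reads, bounds the precision of the smaller liver changes. Below the limit of 1.78 reads per base, liver genes with 0.8 to 1.2 had a median slope of log2 reads on log2 total reads of 0.29. Whether the size of the liver changes of such genes is reduced was not tested.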
